A study of Mus musculus with 3 samples.

Results

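The cholesterol and fatty acid synthesis genes described here are 33 of the 35451 genes named on the array. They are 19 sterol synthesis genes, 8 fatty acid synthesis genes and 6 genes for regulators and sterol transport. They were chosen by their known place in the pathway, with the log2 ratios between these same 3 arrays already known. The ratios are therefore a description of 3 arrays, and no test is given. Expression was measured in mouse embryonic fibroblasts (MEF), primary connective tissue cells that were grown from minced mid-gestation C57BL/6 embryos without heads, legs and internal organs. The control MEF have the treatment "none" in the labels and are a DMSO control in the methods. The other MEF were given n-butylidenephthalide (BP), a compound of the medicinal plant Angelica sinensis, at 10 µg/ml (BP10) or 40 µg/ml (BP40). All 3 cultures shared the same serum-containing medium. The length of BP treatment of the arrayed cells is not given in the sources used here, and neither is the number of embryos pooled.

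One array was hybridized per condition, with Cy3-labeled RNA, so no spread between cultures can be given. The slide was the same for all 3 arrays, but the scan was not: BP10 and BP40 were read in 1 session and the control in another. The scanner software corrected the BP10 and BP40 signals for a trend across the slide, by factors of 0.904 to 1.46 and 0.923 to 1.43, and left the control signals as they were. BP treatment cannot be told apart from scan session in any ratio to the control. Values without the trend correction are given with the other processing settings. The 2 BP arrays were read and corrected alike. Signals are given as log2 of the processed intensity minus the 75th percentile of the gene spots of the same array, so each ratio is relative to the bulk of the genes. Bright genes are the 10949 genes whose brightness, their normalized log2 signal averaged over the 3 arrays, was above 0. Disagreement between probes was taken from genes with 2 bright probes (1496 genes). Their log2 ratio had a median SD between probes of 0.198 for BP10 against control, 0.131 for BP40 against control and 0.157 for BP40 against BP10. Errors that move all probes of an array together, and differences between cultures, are not part of this SD. Gene spots well above background made up 68.3% to 81.7% of each array, and all 33 genes were well above background on all 3 arrays. In whole cultures, fewer cells of a type and less RNA per cell cannot be told apart.

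Cells make cholesterol from acetyl-CoA through mevalonate, isoprenoid phosphates, squalene and lanosterol, and fatty acids from the same acetyl-CoA through malonyl-CoA. Both pathways are controlled by the sterol regulatory element binding proteins (SREBP), membrane-bound transcription factors that the escort protein SCAP carries out of the endoplasmic reticulum when sterols are scarce. The retention proteins INSIG1 and INSIG2 hold that complex back when sterols are plentiful. In fibroblasts these genes supply membrane lipid, and cells fed with serum also take cholesterol up as lipoprotein.

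SREBP is known to bind DNA beside the general factors NF-Y, which recognizes the CCAAT box, and SP1, which binds GC-rich sequence. The promoters are shown so that the DNA letters these factors read can be looked for in them, and those letters are independent of the arrays. Not every printed stretch holds them. Windows of 300 bases, 250 before and 50 after the RefSeq transcription start (GRCm38), were found for 26 of the 33 genes. There was no entry for Stard4, Scd2, Fdft1, Sqle, Fads1, Scd1 and Fdps. The 5 stretches printed here run over the last 200 bases before the start. They are those of Hmgcs1, an early enzyme of the pathway, Cyp51 and Tm7sf2, which hold the lowest sterol gene ratios at BP40 and BP10, Insig1 among the regulators, and Elovl6, the lowest ratio of the fatty acid group at BP40. Capitals mark CCAAT on either strand (read as ATTGG where it lies on the other strand), and the sterol regulatory element letters TCACNCCAC.
Hmgcs1, chr13:119690151-119690350, plus strand: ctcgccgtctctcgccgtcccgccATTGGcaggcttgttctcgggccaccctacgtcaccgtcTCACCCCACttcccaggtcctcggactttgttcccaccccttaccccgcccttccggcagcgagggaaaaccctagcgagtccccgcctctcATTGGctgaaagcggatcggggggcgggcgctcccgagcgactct
Cyp51, chr5:4104698-4104897, minus strand: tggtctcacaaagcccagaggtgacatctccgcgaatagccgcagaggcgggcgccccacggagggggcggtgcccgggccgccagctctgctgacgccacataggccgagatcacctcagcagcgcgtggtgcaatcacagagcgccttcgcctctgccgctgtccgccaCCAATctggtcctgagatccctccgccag
Tm7sf2, chr19:6067851-6068050, minus strand: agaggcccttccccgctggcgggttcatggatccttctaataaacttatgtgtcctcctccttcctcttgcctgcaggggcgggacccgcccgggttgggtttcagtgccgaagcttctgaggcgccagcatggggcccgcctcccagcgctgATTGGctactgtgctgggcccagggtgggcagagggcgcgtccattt
Insig1, chr5:28071212-28071411, plus strand: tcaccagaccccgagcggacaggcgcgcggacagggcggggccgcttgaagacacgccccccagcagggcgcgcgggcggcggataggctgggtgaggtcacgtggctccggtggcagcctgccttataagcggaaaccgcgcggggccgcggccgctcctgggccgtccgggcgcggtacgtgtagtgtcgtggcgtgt
Elovl6, chr3:129532186-129532385, plus strand: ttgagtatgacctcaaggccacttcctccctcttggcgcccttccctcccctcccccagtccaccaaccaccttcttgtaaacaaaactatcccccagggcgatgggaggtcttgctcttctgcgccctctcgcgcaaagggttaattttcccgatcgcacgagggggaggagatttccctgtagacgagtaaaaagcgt

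CCAAT was found in the windows of 15 of 16 sterol synthesis genes (93.8%), the one without it being Acat2. The share was 41.1% over all 27025 genes with a window and 43.1% over the 6868 bright genes with one. Within 100 bases before the start, 14 of the 16 sterol genes (87.5%) held CCAAT, against 21.6% of all genes and 26.6% of the bright genes. Only Acly and Fasn of 5 fatty acid genes with a window held it (40.0%), as did 4 of 5 regulator genes (80.0%). The box stood 45 bases before the start in Hmgcs1 and Idi1, 47 bases before it in Tm7sf2 and 29 bases before it in Cyp51. In the Insig1 window it lay 216 bases before the start, outside the printed stretch.

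The letters TCACNCCAC were found in Hmgcs1 alone, 137 bases before the start, which is 3.85% of the 26 windows against 1.44% of all genes. The E-box CACGTG was found in 5 of these genes (19.2%), against 8.09% of all genes and 12.5% of the bright genes. Insig1 was among the 5, with the E-box at 101 bases before the start. The GC box GGGCGG was found in 21 of the 26 genes (80.8%), against 38.2% of all genes and 71.7% of the bright genes. All 4 motifs were searched on both strands, and none of their matches overlap in the printed stretches. A match is a description of the letters, and a window without one says only that those letters are not in it.

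The sterol synthesis genes as a group had lower signals on both BP arrays than on the control array. The median over these genes was a log2 ratio of -0.31 for BP10 and of -0.31 for BP40, beside -0.10 and 0.06 for the bright genes and -0.23 and -0.11 for all genes. Of the 19 genes, 17 were lower than the control at BP10 and 16 at BP40, beside 6719 and 4600 of the 10949 bright genes. Over all processing settings tried, these counts ran from 14 to 18 at BP10 and from 16 to 19 at BP40. Each gene was also set against genes of its own brightness, in 40 classes of equal size. By that measure 15 sterol genes lay below the class median at BP10 and 17 at BP40, where 48.9% and 48.9% of the 25033 genes above background on all arrays did so.

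**Figure D1:**
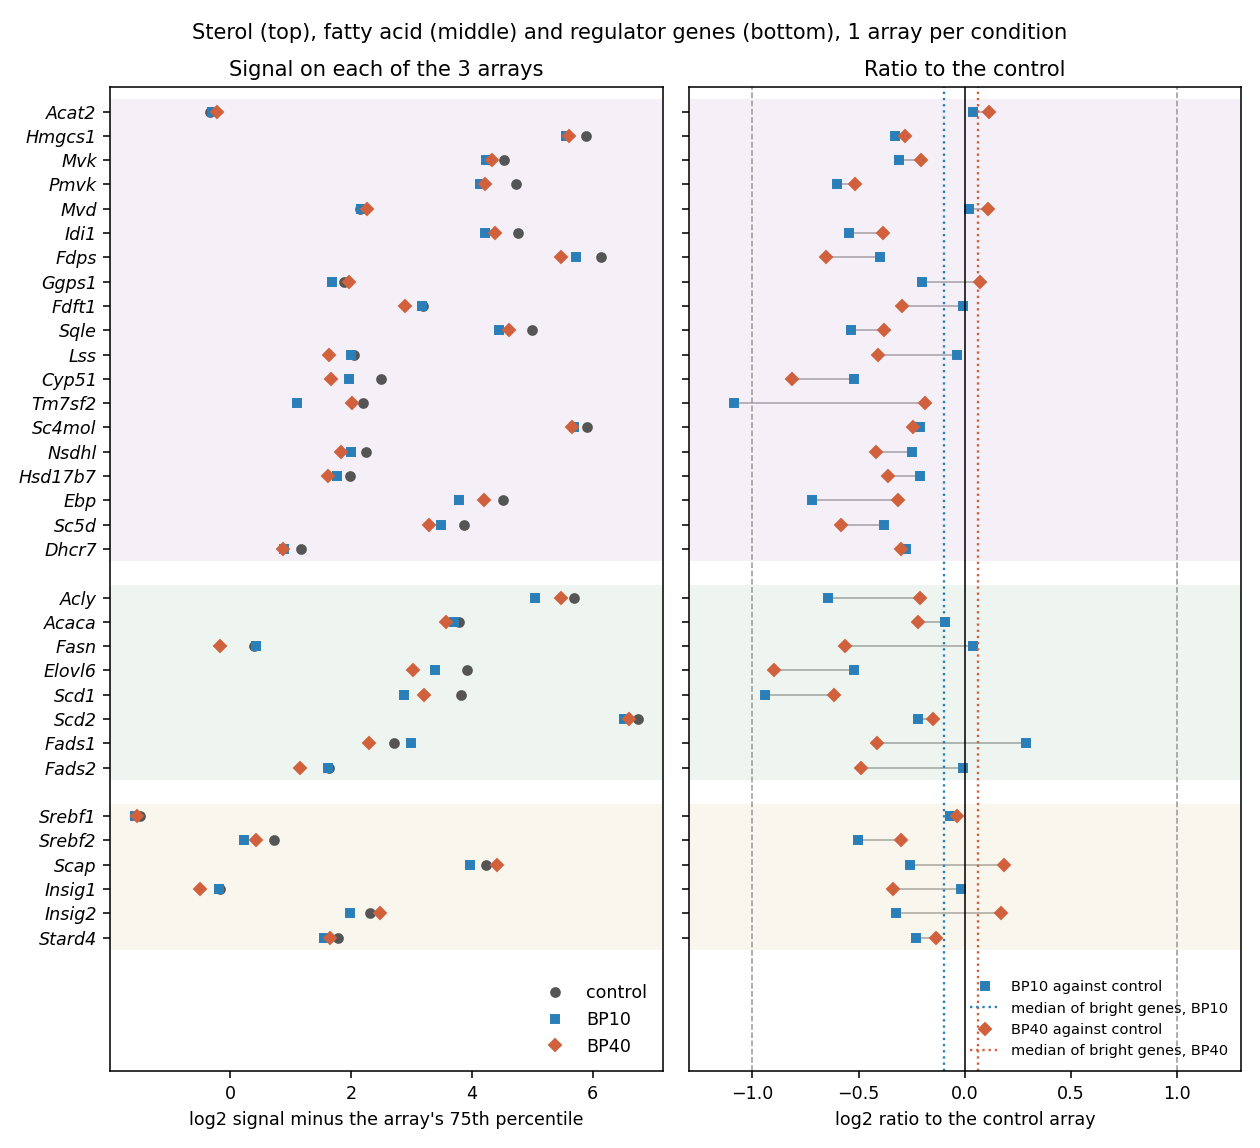
Left, the normalized log2 signal of each gene on the control (circles), BP10 (squares) and BP40 (diamonds) arrays; right, the log2 ratio of each BP array to the control, with dotted lines at the median of the bright genes (-0.10 for BP10 and 0.06 for BP40) and dashed lines at 2-fold. At BP40, 28 of the 33 genes lie left of 0, and Tm7sf2 at BP10 is the one gene past a dashed line; there is 1 array per condition and no error bar.

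The mevalonate steps make the activated isoprene unit. Acat2, the cytosolic thiolase that joins acetyl-CoA units, had normalized log2 signals of -0.33 on the control array, -0.29 at BP10 and -0.22 at BP40. Hmgcs1, which makes HMG-CoA, had 5.88, 5.55 and 5.60 on the same arrays. Mvk, mevalonate kinase, had 4.54, 4.23 and 4.33, and Pmvk, the next kinase, had 4.73, 4.13 and 4.21. Mvd, the decarboxylase that ends this stretch, had 2.15, 2.17 and 2.26. The control array was thus the highest for Hmgcs1, Mvk and Pmvk, and was the lowest of the 3 for Acat2 and Mvd. The log2 ratios to the control were -0.33 and -0.28 for Hmgcs1 at BP10 and BP40, -0.31 and -0.21 for Mvk, and -0.60 and -0.52 for Pmvk, whose signal was 1.52-fold lower at BP10. A further Pmvk probe gave -0.54 and -0.64. For Acat2 (0.04 and 0.12) and Mvd (0.02 and 0.11) both ratios were within the SD between probes.

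The isoprenoid steps extend that unit to farnesyl and geranylgeranyl diphosphate. Idi1, the isomerase, had signals of 4.77 on the control array, 4.23 at BP10 and 4.39 at BP40. Fdps, farnesyl diphosphate synthase, had 6.13, 5.73 and 5.48. Ggps1, which leads away from sterols to geranylgeranyl diphosphate for protein prenylation, had 1.89, 1.69 and 1.96. Idi1 and Fdps were highest on the control array, and Ggps1 was highest at BP40 by the probe used. The log2 ratios to the control were -0.55 and -0.39 for Idi1, -0.40 and -0.65 for Fdps, and -0.20 and 0.07 for Ggps1. The Ggps1 ratio at BP40 was within the SD between probes. Of the further Ggps1 probes, one gave 0.09 at BP10 and 0.0011 at BP40 and the other gave -0.27 and 0.06. Fdps was 1.57-fold lower at BP40, and 3.52% of the bright genes had a lower ratio there.

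Squalene and lanosterol are made by the next 3 enzymes. Fdft1, squalene synthase, had signals of 3.19 on the control array, 3.18 at BP10 and 2.90 at BP40. Sqle, squalene epoxidase, had 4.99, 4.46 and 4.61, and Lss, lanosterol synthase, had 2.04, 2.01 and 1.64. All 3 genes were lower on both BP arrays than on the control, but Fdft1 and Lss by only 0.01 and 0.04 at BP10. A further Fdft1 probe, above background on 1 array, gave log2 ratios of 0.42 and 0.22, and the median of both probes gave 0.21 and -0.04. Their log2 ratios at BP40 were -0.30 for Fdft1, -0.38 for Sqle and -0.41 for Lss, and that of Sqle at BP10 was -0.54.

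The 8 enzymes that turn lanosterol into cholesterol all had lower signals on both BP arrays, with median log2 ratios of -0.33 at BP10 and -0.34 at BP40, and all 8 lay below the median of their brightness class at both doses. Cyp51, the lanosterol demethylase, had signals of 2.49 on the control array, 1.97 at BP10 and 1.68 at BP40. Tm7sf2, a sterol reductase of the following step, had 2.20, 1.12 and 2.01. Sc4mol, now named Msmo1, the methyl oxidase, had 5.90, 5.69 and 5.66. The order over the arrays was control, BP10, BP40 from high to low for Cyp51 and Sc4mol, whereas Tm7sf2 was lowest at BP10 and in between at BP40. The signals were 2.25, 2.00 and 1.83 for Nsdhl, the sterol dehydrogenase, and 1.99, 1.78 and 1.63 for Hsd17b7, the ketosteroid reductase. Ebp, the sterol isomerase, had 4.51, 3.79 and 4.20. Sc5d, the sterol desaturase, had 3.88, 3.50 and 3.30, and Dhcr7, the last reductase, had 1.17, 0.90 and 0.87. Ebp shared with Tm7sf2 the order in which BP10 was lowest, and the others were lowest at BP40 by the probe used. For Dhcr7 and Sc4mol the log2 ratios of BP40 over BP10 were only -0.02 and -0.03, within the SD between probes. The further Nsdhl probe was lowest at BP10, with log2 ratios to the control of -0.52 at BP10 and -0.15 at BP40.

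Cyp51 had the lowest sterol gene ratio at BP40, with a log2 ratio of -0.81 (1.76-fold lower) after -0.52 at BP10, and 1.99% of the bright genes had a lower ratio than it did at BP40. Its probe lies at chr5:4081471-4081530 of mm9, the build of the array files. Tm7sf2 was the one gene called at 2-fold, with a log2 ratio of -1.09 (2.12-fold lower) for BP10 and -0.19 for BP40, by a probe at chr19:6062882-6062941. A further Tm7sf2 probe gave -0.86 and -0.33, and with the median of its probes Tm7sf2 was not called. Whether these probes lie in exons or untranslated regions was not annotated here. The log2 ratios of Ebp were -0.72 and -0.31, those of Sc5d -0.38 and -0.58, and those of Nsdhl -0.25 and -0.42. Dhcr7 (-0.28 and -0.30), Sc4mol (-0.21 and -0.25) and Hsd17b7 (-0.21 and -0.36) differed less from the control. Of the further Hsd17b7 probes, one gave 0.29 at BP10 and -0.28 at BP40 and the other gave -0.18 and -0.56.

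The fatty acid synthesis genes had lower signals on the BP40 array than on the control in all 8 cases, with a median log2 ratio of -0.45, and all 8 lay below the median of their brightness class. At BP10 the median was -0.16, with 6 of 8 genes lower than the control and 4 of 8 below the class median. Acly, which splits citrate into cytosolic acetyl-CoA, had normalized log2 signals of 5.68 on the control array, 5.04 at BP10 and 5.47 at BP40. Acaca, acetyl-CoA carboxylase, had 3.80, 3.70 and 3.57. Fasn, fatty acid synthase, had 0.40, 0.44 and -0.17. Of these, Acly was lowest at BP10, and Acaca and Fasn were lowest at BP40. The log2 ratios at BP10 and BP40 were -0.64 and -0.21 for Acly, -0.09 and -0.22 for Acaca, and 0.04 and -0.57 for Fasn. Other probes differed: the further Acly probe gave -0.08 and -0.05, and an Acaca probe placed 1 base away gave 0.10 and 0.17. The remaining Acaca probes, which were dimmer, gave 0.76 and 0.22, and 0.16 and -0.19. With the median of its probes Acaca stood at 0.13 at BP10 and -0.0085 at BP40.

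Elovl6 lengthens palmitate and the desaturases put double bonds into the chain. Elovl6 had signals of 3.92 on the control array, 3.40 at BP10 and 3.02 at BP40. Scd1, stearoyl-CoA desaturase, had 3.82, 2.88 and 3.20, and its relative Scd2 had 6.75, 6.53 and 6.60. Both Scd genes were lowest at BP10, and Elovl6 was lowest at BP40. Fads1 and Fads2, the desaturases of polyunsaturated fatty acids, are neighbours on chromosome 19. Fads1 had 2.71, 2.99 and 2.29, and Fads2 had 1.64, 1.63 and 1.15, so that both were lowest at BP40.

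Elovl6 had the lowest ratio of all 33 genes at BP40, with a log2 ratio of -0.90 (1.86-fold lower) after -0.52 at BP10, from a probe at chr3:129341248-129341307 (mm9). Only 1.43% of the bright genes had a lower ratio at BP40. Scd1 stood at -0.94 at BP10 (1.92-fold lower) and -0.61 at BP40 (1.53-fold lower), by a probe at chr19:44469387-44469446, and 1.87% of the bright genes were lower at BP10. Scd2 stood at -0.22 and -0.15. Signal that Scd1 and Scd2 could share through related sequence was not tested. Fads1 was above the control at BP10 (0.29) and below it at BP40 (-0.41), whereas Fads2 was at -0.01 and -0.49, and its further probe at -0.32 and -0.63.

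The genes for regulators and sterol transport had ratios closer to the control at BP40 than the enzymes did, with a median of -0.25 for BP10 and -0.09 for BP40 on the log2 scale. All 6 were lower than the control at BP10 and 4 of 6 at BP40. Below the class median lay 4 at BP10 and 3 at BP40. Srebf1, which encodes the SREBP that favours fatty acid genes, had signals of -1.49 on the control array, -1.56 at BP10 and -1.53 at BP40. Srebf2, which encodes the SREBP that favours sterol genes, had 0.73, 0.23 and 0.43. The 3 Srebf1 values lay within the SD between probes, and Srebf2 was highest on the control array with log2 ratios of -0.50 and -0.30. A further Srebf2 probe gave -0.17 and -0.56.

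Scap, the escort protein, had signals of 4.23 on the control array, 3.97 at BP10 and 4.42 at BP40. Insig1, itself a known SREBP target, had -0.16, -0.18 and -0.50, and Insig2 had 2.31, 1.99 and 2.49. Stard4, which carries cholesterol through the cytosol, had 1.78, 1.55 and 1.65. Scap and Insig2 were highest at BP40, and Insig1 and Stard4 were highest on the control array. The log2 ratios to the control were -0.26 and 0.18 for Scap, -0.02 and -0.34 for Insig1, -0.32 and 0.17 for Insig2, and -0.23 and -0.14 for Stard4. The further Insig2 probe gave 0.55 and 0.14, above the control at both doses, and that of Stard4 gave -0.04 and -0.40.

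**Figure D2:**
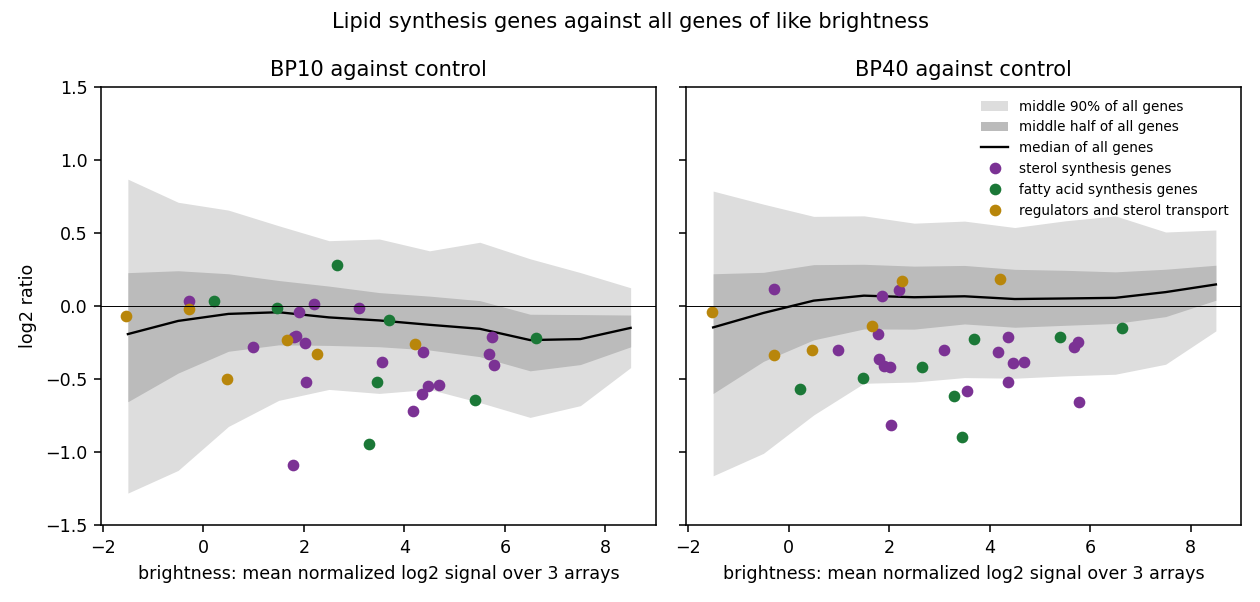
Log2 ratio to the control against brightness (normalized log2 signal averaged over the 3 arrays) for BP10 (left) and BP40 (right); the dark band holds the middle 50% and the light band the middle 90% of all genes of each brightness, the line is their median, and points are the 33 genes by group. At BP40, 28 of the 33 points lie below the median of their brightness class, and at BP10 23 do.

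Few of the 33 genes reached a 2-fold ratio. A 2-fold call required a probe well above background on 1 or both of the arrays compared. By that rule 1 of the 33 genes was called at BP10 (Tm7sf2, lower) and 0 at BP40, where 12.9% and 11.6% of all 35451 genes were called. Most called genes are dim, and of the bright genes 2.20% and 1.75% were called. At 1.5-fold, 5 genes were lower at BP10 (Pmvk, Tm7sf2, Ebp, Acly and Scd1), beside 21.8% of all genes and 6.87% of the bright ones. At BP40, 4 were lower by that much (Fdps, Cyp51, Elovl6 and Scd1), beside 19.7% of all genes and 4.53% of the bright ones. None of the 33 was 1.5-fold higher at either dose, beside 6.78% of all genes and 3.56% of the bright ones at BP10, and 6.94% and 5.32% at BP40. With 30 of the 33 genes among the bright ones, the shares of the bright genes are the nearer background, and no test was made on either.

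BP40 against BP10 compares the arrays that were scanned and corrected alike. The median log2 ratio of these genes was 0.05, with 15 of 33 lower at BP40, and that of the bright genes was 0.15. The count of 15 ran from 13 to 33 over the settings, since it follows the scale the arrays are set to. Below the median of their brightness class lay 24 of the 33, where 50.2% of the genes above background on all arrays did so. The fatty acid genes had a median log2 ratio of -0.25, with 5 of 8 lower, the sterol genes one of 0.05 and the regulators one of 0.15. At 1.5-fold, Fads1 (-0.70) and Fasn (-0.61) were lower at BP40, beside 5.53% of all genes and 2.93% of the bright ones. Fads2 (-0.48), Elovl6 (-0.38), Lss (-0.37) and Insig1 (-0.32) followed them. Tm7sf2 was higher at BP40 by 0.90, and by 0.53 with its further probe, and it was the one gene 1.5-fold higher, beside 7.80% of all genes and 7.82% of the bright ones. Insig2 (0.50), Scap (0.44), Acly (0.43) and Ebp (0.41) were next, but the further Insig2 probe gave -0.41. At 2-fold 0 of the 33 genes were called, beside 3.65% of all genes and 1.70% of the bright ones.

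**Figure D3:**
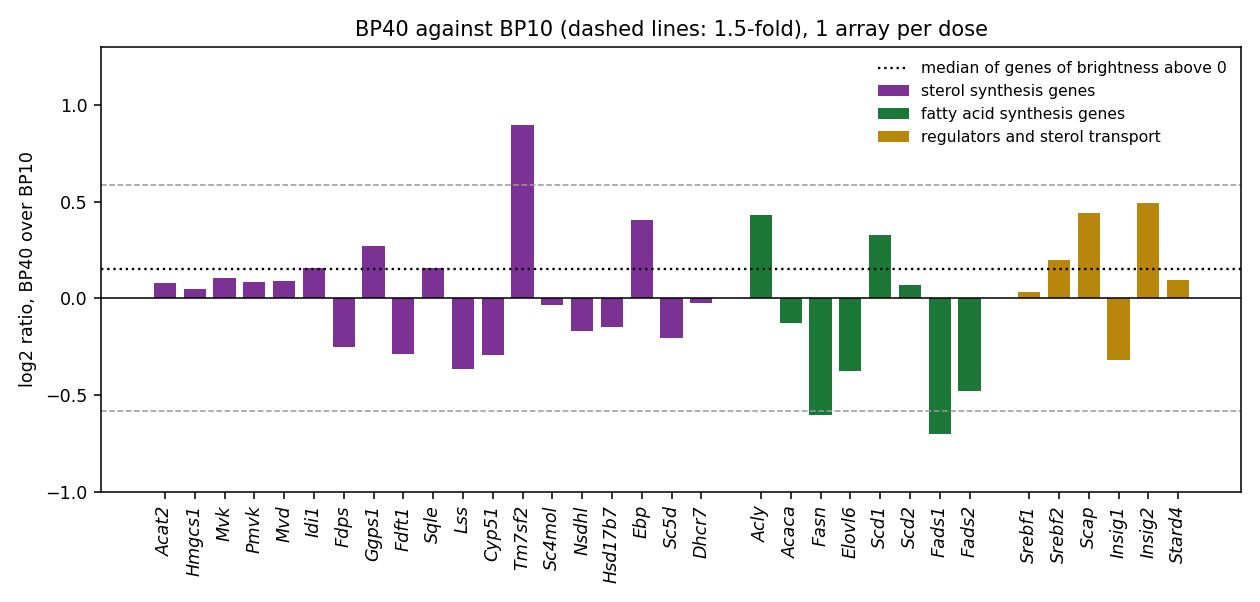
Log2 ratio of BP40 over BP10 for each gene, coloured by group, from 1 array per dose, with a dotted line at the median of the bright genes (0.15) and dashed lines at 1.5-fold. Fads1 (-0.70), Fasn (-0.61) and Tm7sf2 (0.90) lie past the dashed lines.

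Several probes had been printed for 13 of the genes, which gives 17 further readings of the same RNA. At BP10 a further probe differed from the one used by a median of 0.27 and by up to 0.88, and in 5 genes one had the opposite sign. At BP40 the differences were smaller, with a median of 0.16, a largest value of 0.52 and 2 genes with an opposite sign. Ratios between the doses differed by a median of 0.37, and 8 genes had an opposite sign, so that the order of BP10 and BP40 rests on the choice of probe in those genes.

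Of the other genes of these pathways, 86 of 87 listed were measured. The median over all of them lay near 0, but the single lists differed. The median log2 ratio was -0.07 for BP10 and 0.02 for BP40, with 49 and 43 lower than the control, and 40 and 41 below their class median.

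The other sterol enzymes, 11 of them measured, had median log2 ratios of -0.11 at BP10 and -0.25 at BP40. Of these, 6 and 9 were lower than the control, and 6 and 8 lay below their class median. Cyp7b1, an oxysterol hydroxylase of that list, was called lower at both doses. Its signals were -0.41 on the control array, -1.68 at BP10 and -1.45 at BP40. The genes for fatty acid supply held Acss2, which makes acetyl-CoA from acetate, with 1.69, 0.43 and 1.14, and Acsl3, which activates long-chain fatty acids, with 1.36, 0.23 and 0.87. Both were called lower at BP10, with log2 ratios of -1.26 and -1.13, and both were nearer the control at BP40, with -0.54 and -0.49. That list of 20 genes had median log2 ratios of -0.17 at BP10 and 0.02 at BP40. In it 3 genes were called lower at BP10, Thrsp being the third, which was not above background on all arrays. Of all 35451 genes, 3633 were called lower at BP10 and 3190 at BP40, and of the 10949 bright genes 175 and 98. Triglyceride and phospholipid synthesis genes had median log2 ratios of 0.25 and 0.13, sterol uptake, efflux and storage genes 0.00 and 0.12, and the genes of SREBP processing and turnover -0.15 and -0.03. The prenyl branch, which uses the isoprenoids for protein prenylation and ubiquinone, stood at -0.04 and 0.15.

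Marker genes of other cell types and of the fibroblasts themselves were read from the same arrays. All 14 fibroblast markers were well above background on every array, and their summed linear signal, in units of each array's 75th percentile, was 1630 on the control array, 1190 at BP10 and 1270 at BP40. The median log2 ratio of the list was -0.58 for BP10, with 14 of 14 lower, and -0.54 for BP40, with 11 of 14 lower, so these markers lay on the same side of the control as the sterol genes. Lum, a matrix proteoglycan, stood at -3.19 and -2.21. The summed signal of the 10 adipocyte markers was 5.48, 7.38 and 7.14, with 8 above background on all arrays and Adipoq above it on 1. The median log2 ratio of that list was -0.50 for BP10, with 7 of 10 lower, and -0.10 for BP40, with 5 of 10 lower. Pparg, the adipocyte regulator, stood at 1.47 and 1.25 and Cebpa, another, at 0.71 and 0.60, while Lep, which encodes leptin, stood at -1.495 and -1.52. The 8 macrophage markers, all above background, summed to 34.5, 28.4 and 31.4. The median log2 ratio of that list was -0.09 for BP10, with 4 of 8 lower, and 0.11 for BP40, with 3 of 8 lower. Itgam, the brightest of these markers, stood at -0.44 and -0.42. Lyz2 was called higher at both doses, with log2 ratios of 1.1007 and 1.2561. The 8 hepatocyte markers summed to 8.03, 6.74 and 7.06, with Alb and Ttr above background on 0 arrays, and the 5 epithelial markers to 5.08, 5.60 and 4.64, with Epcam and Cdh1 above it on 0. Mitosis genes, which follow the share of cycling cells, had a median of -0.01 and 0.06. The part of fibroblast RNA content, adipocyte genes or cell makeup in the lipid gene ratios was not tested.

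The levels depended on the scale that the arrays were set to, and the position among bright genes less so. Added exogenous RNA (E1A spike-in, 7 bright probes) had median log2 ratios of 0.01 for BP10 against control, 0.80 for BP40 against control and 0.79 for BP40 against BP10 on the scale used, as medians of the ratios of single probes, which ran from -0.58 to 0.15, from 0.13 to 0.99 and from 0.42 to 0.92. Scaling on the median spike-in signal of each array shifted all ratios by 0.14, -0.77 and -0.91, and scaling on the median of the probes' ratios shifted them by -0.01, -0.80 and -0.79. On either spike-in scale all 33 genes were lower at BP40 than on the control, and the median of the bright genes was -0.71 on the first and -0.74 on the other. Without the trend correction the sterol genes were at -0.58 and -0.54, the fatty acid genes at -0.52 and -0.60, and the bright genes at -0.34 and -0.15 for BP10 and BP40 against control. Relative to the bright genes, the sterol genes stood at -0.21 at BP10 and -0.37 at BP40, the fatty acid genes at -0.06 and -0.51, and the regulators at -0.15 and -0.15. Over 9 alternatives of the processing, of which 4 cannot change this difference, the sterol genes stayed between -0.25 and -0.18 at BP10 and between -0.40 and -0.35 at BP40. The fatty acid genes stayed between -0.54 and -0.44 at BP40 and ran from -0.19 to 0.02 at BP10. In the 10 settings together, 27 of the 33 genes were lower than the control at BP40 each time, among them 16 of 19 sterol and 8 of 8 fatty acid genes. The exceptions were Acat2, Ggps1, Mvd, Insig2, Scap and Srebf1. At BP10, 20 of the 33 were lower each time, with 14 of the sterol and 3 of the fatty acid genes.

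**Figure D4:**
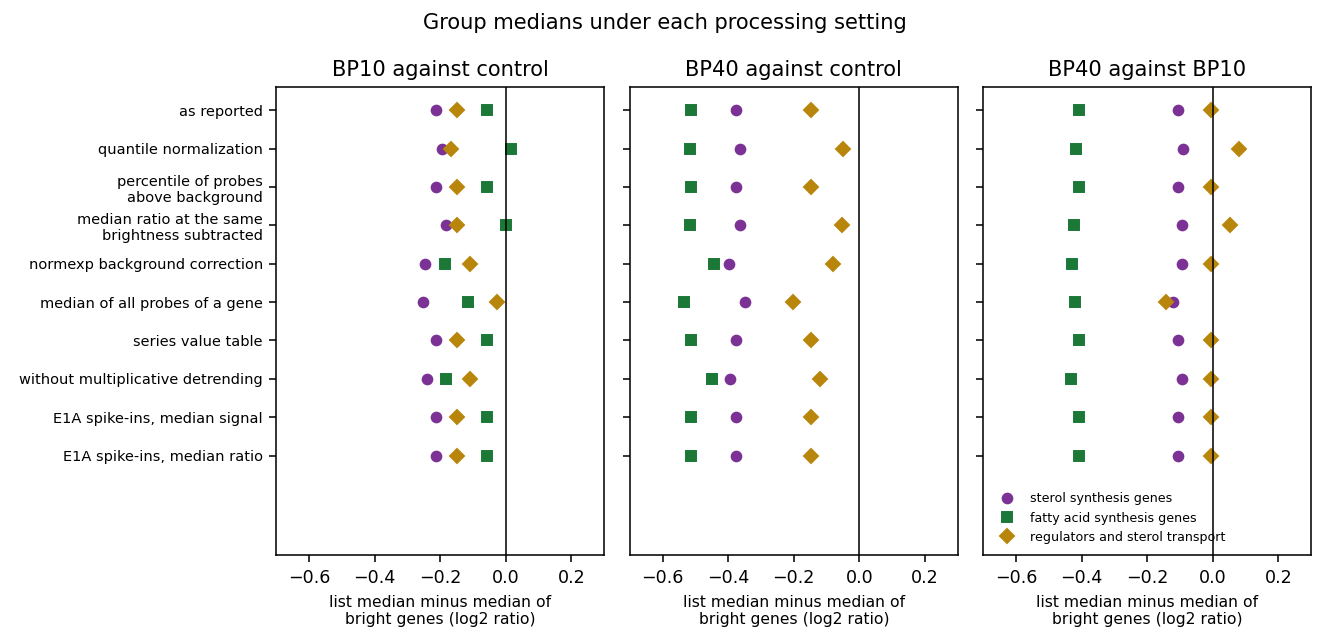
Median log2 ratio of each group minus that of the bright genes, under the reported setting and 9 alternatives, for the 3 comparisons. The sterol genes lie below 0 in every row, the fatty acid genes lie between -0.54 and -0.44 for BP40 against control, and the fatty acid genes reach 0.02 for BP10 against control.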

How the data were processed

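Cy3-labeled total RNA of MEF was measured on single-colour Agilent mouse arrays, 1 per condition. The authors deposited the scanner output of Feature Extraction 10.5.1.1, in which the processed intensity of each spot is background-corrected and not scaled between arrays. The BP10 and BP40 intensities were detrended multiplicatively within the array and the control intensities were not. From these values, log2 intensity minus the 75th percentile of the array's gene spots was computed, and spots of a probe were averaged. Where a gene had several probes, the one above background on more arrays was used, and among equals the brightest. Of 55681 gene probes, 26425 (47.5%) took their name from a RefSeq accession and the others from the scanner file. Where a probe was above background on 1 of the arrays compared, the lower bound of its ratio had to reach 2-fold for a call. Spot error was read from 172 bright probes printed 10 times, with a median SD of log2 signal of 0.0889 on the control array, 0.0531 at BP10 and 0.0573 at BP40. These errors cover the array alone, and precision is limited by how few arrays there are.

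The members and lists were chosen with earlier results of these data known. All 33 members are named, as are the genes of other pathway lists that were called with a probe above background on both arrays, and some items are not reported here; named markers were picked to show each list's range. Alternatives were quantile normalization, a percentile over probes above background, subtraction of the median ratio at like brightness, normexp (offset 50), the median over a gene's probes, filters on dim probes, thresholds of 1.5-fold and 3-fold, and the series table, with 3 more chosen after seeing the data. Python 3.11.15, numpy 2.4.6, pandas 2.3.3 and R 4.3.3 with limma 3.58.1 were used. On simulated data with 200 of 35451 genes changed, the calls recovered 200 in BP10 against control and 200 in BP40 against control. That run checked the computation only, and how often the calls are right on the real arrays was not tested.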

Additional observations from a re-analysis of the deposited data

Results flagged for a closer look

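In 3 genes the BP10 and BP40 arrays lay on opposite sides of the control, each by more than the SD between 2 probes of a gene, and the difference between the doses was not tested. Fads1 was above the control at BP10 and below it at BP40, with a log2 ratio of BP40 over BP10 of -0.70. Scap was below the control at BP10 and above it at BP40, with a ratio of 0.44. Insig2 had the same order as Scap, with 0.50, but its further probe lay above the control at both doses (0.55 and 0.14) and gave -0.41 for BP40 over BP10. The opposite sides of Scap and Insig2 depended on the scale. Without the trend correction Scap stood at -0.47 at BP10 and -0.0077 at BP40 and Insig2 at -0.50 and 0.014, and scaled on the median spike-in signal they stood at -0.59 and -0.60 at BP40. Fads1 was above the control at BP10 and below it at BP40 in all 10 settings.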

How the results depend on the processing

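No paired analysis was possible because a condition has a single array and the labels carry no replicate numbers. Of the recomputed values 97 stayed within the SD between probes, or within 1.5 times for counts, and 32 moved. Without the multiplicative detrending, an alternative chosen after seeing the data, the median log2 ratios were -0.58 at BP10 and -0.54 at BP40 for sterol genes, -0.52 and -0.60 for fatty acid genes and -0.44 and -0.27 for regulators, with 3 genes called at BP10 and 1 at BP40; the bright genes moved with them, to -0.34 and -0.15. Scaled on the median spike-in signal, also chosen after seeing the data, they were -1.09 at BP40 and -0.86 for BP40 against BP10 for sterol genes, -1.22 and -1.17 for fatty acid genes and -0.86 and -0.77 for regulators. That scale called 0 genes at BP10, 21 at BP40 and 13 for BP40 against BP10. On it the bright genes stood at -0.71 at BP40 and -0.76 for BP40 against BP10, and all genes at -0.89 and -0.85. Scaled on the median ratio of the spike-in probes, chosen later still, the group medians were -1.11 and -0.74 for sterol genes, -1.25 and -1.04 for fatty acid genes and -0.89 and -0.64 for regulators. That scale called 1 gene at BP10, 24 at BP40 and 9 for BP40 against BP10, with the bright genes at -0.74 and -0.63. The share of all genes called on either spike-in scale is not given, so these counts are not read as a result about the 33 genes. After subtraction at the same brightness the fatty acid genes stood at -0.42 for BP40 against BP10, and with the median of all probes the regulators stood at -0.030 there and 0 genes were called at BP10. A threshold of 1.5-fold called 5 genes at BP10, 4 at BP40 and 3 for BP40 against BP10, and one of 3-fold called 0 at BP10. The filter that keeps list genes above background on all arrays removed none of the 33 genes, and the series table holds the same values. With 1 array per condition, a ratio smaller than the SD between probes was not separable from disagreement between probes. A larger ratio is not thereby separable from errors of a whole array or from differences between cultures, which this SD leaves out.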
